A study of Mus musculus with 24 samples.

Results

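The growth of EU-labelled RNA between 20 and 60 min of labelling was compared between 2 Alkbh5 mutants of mouse embryonic stem cells, for every gene and every repeat family. EU (5-ethynyl uridine) replaces uridine in RNA as it is made, so that new transcripts can be captured. For each gene the change from 20 to 60 min was taken in the cells labelled Alkbh5 del-cIDR (dcIDR below) and in the cells labelled Alkbh5 KO, and the KO change was subtracted. The difference rests on 12 of the 24 samples of the series: dcIDR and KO at 20, 40 and 60 min, with 2 libraries in each of the 6 groups. The 10 min libraries, to which the deposited ratios are set, cancel in it. Unmodified cells (WT) enter only as a description beside the histone genes and in an alternative fit in which all 24 libraries share the spread. All cells were of the E14TG2a line and grew in serum medium with LIF, the MEK inhibitor PD0325901 and the GSK3 inhibitor CHIR99021, and EU was given at 1 mM. The labels name no clone, give no position for either deletion and do not say whether the libraries of a group came from cultures grown apart. The p-values therefore measure the spread between these libraries, which may be technical.

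ALKBH5 is an enzyme that removes N6-methyladenosine (m6A), a common internal mark of messenger RNA, and it carries disordered ends around a folded catalytic domain. The KO is labelled as a loss of the gene, and dcIDR as a loss of the C-terminal disordered region (cIDR). After short labelling most captured RNA is nascent or newly finished, and longer labelling adds transcripts that have been processed and that may already be turning over. RNAs that are made and cleared fast therefore come to a steady labelled level earlier than stable ones. Replication-dependent histone mRNAs, made in S phase, are a special class of new RNA: they end in a conserved stem-loop in place of a poly(A) tail.

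The 12 libraries held 5585691 to 22161768 reads over genes and 6037 to 17344 reads of the Drosophila spike-in. The deposited ratios were turned back into the reads of each library, and the library of a group with more spike-in reads is called A, the other B. KO library B at 20 min had the fewest reads and stood apart from the others, so counts are also given without it. Reads of a gene were brought to the same number of spike-in reads in every library, which gives its level, and a centred level is the level after each library was set to its median tested gene. Levels are compared within a gene only, since they are not divided by length. For the genes with most reads the files fix the sum over both libraries of a group but not how it splits between them, and the sum was then shared by the pair's median ratio. Such genes, 285 of the 23520 tested, have no measured spread between libraries in at least 1 group, so counts of calls for the change with time are given with and without them.

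Alkbh5 itself had centred levels of 1424 and 1539.9 at 20 min, 1823 and 1851 at 40 min, then 2126 and 2046 at 60 min in dcIDR. In KO it had 1183 and 1020.1 at 20 min, 1599.7 and 1666 at 40 min, then 1709 and 1714 at 60 min. The gene thus still gave reads in every KO library, at a lower level than in dcIDR by 0.30 ± 0.05 (SE) over the 3 times (log2 scale, limma adjusted p = 5.12e-05), and the difference in its change with time did not pass, at -0.15 ± 0.12 (SE, adjusted p = 0.616). Reads over a whole gene do not check either deletion.

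Stem cell markers were detected in full, 10 of 10 in both mutants, with summed levels of 41062 to 106791 in dcIDR and 37698 to 104750 in KO on the spike-in scale. The neural markers summed to 1583 to 3401 in dcIDR and 2901 to 8601 in KO, endoderm and mesoderm markers to 7205 to 15380 and 8288 to 19300, fibroblast markers to 717 to 1499 and 712 to 1782 with S100a4 at 0, and trophoblast markers to 700.4 to 1699 and 495 to 1540 with Tpbpa at 0. None of the 32 tested markers of these other types was called for the change with time.

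Captured RNA as a whole grew less in dcIDR than in KO on average, but not beyond the spread of the libraries. Gene reads per spike-in read were 924 and 1452 in dcIDR at 20 min, 1697 and 2187 at 40 min, then 1615 and 2203 at 60 min. In KO they were 801 and 925 at 20 min, 1391 and 1579.7 at 40 min, then 2258 and 2084 at 60 min. The dcIDR pairs lay far apart at each time, and at 60 min the dcIDR and KO pairs overlapped. The change of the mean log2 value from 20 to 60 min was 0.70 in dcIDR and 1.33 in KO, a difference of -0.63 (exact two-sided permutation p = 0.2222, where 0.0556 is the smallest p the design allows). The deposited columns show the same gap: over the 31118 of 56941 genes that are nonzero in all 9 columns, the median difference was -0.77, with -0.14 falling between 20 and 40 min and -0.63 between 40 and 60 min. In such bulk samples, fewer cells and less RNA per cell cannot be told apart. Each gene is therefore described relative to this shared shift, and the spike-in scale is given beside the main results.

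Relative to the median gene, 196 of 23520 tested genes (0.833%) changed differently with labelling time in the 2 mutants, 162 (0.689%) with a higher change in dcIDR and 34 (0.145%) with a lower one, in limma with Benjamini-Hochberg adjustment. Without the genes of unresolved split, 93 of 23235 (0.4%) passed, 72 (0.31%) higher and 21 (0.0904%) lower, and all 93 were among the 196. Without KO library B at 20 min 110 passed, 85 higher and 25 lower. The higher calls lay among genes with many reads: 73 of the 660 genes whose mean level reached 5000 were called higher and 0 lower, but 46 of those 73 have an unresolved split. The count fell to 70 (43 higher, 27 lower) when libraries were centred on the genes nonzero in all 9 deposited columns, to 69 (45 and 24) when they were centred on the middle 40% of log ratios and to 34 (8 and 26) under quantile normalization, and on the spike-in scale it was 80 (0 and 80). It ranged from 15 without KO library A at 60 min to 899 without KO library A at 20 min. In simulated libraries of the same depth, every gene was given the same spread between libraries, the median over genes with many reads (a dispersion of 0.00312). There, 30% of 100 genes with a true log2 difference of 0.5 were called, and 84% of 100 with a difference of 1. These genes were drawn from those with a mean level of 50 or more. The 7289 tested genes with a mean level of 10 to 50 could not be drawn. In the same libraries 6 genes without a true difference were called too. How these shares vary with the level or the spread of a gene was not tested.

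Replication-dependent histone genes, which encode the histones made during DNA replication, had higher changes in dcIDR. Of the 66 members, 60 were tested, 10 passed with a higher change in dcIDR and 0 with a lower one, and 9 of them passed without the genes of unresolved split. The difference was above 0 in 58 of the 60, with a median of 0.84 on the log2 scale, where the median of all tested genes was 0.06. In dcIDR their median change with labelling time, relative to the median gene, was 0.51, with 51 of 60 above 0. In KO their median change was -0.34, with 51 of 60 below 0. Within dcIDR 27 histone genes passed as higher at 60 min and 2 as lower (23.3% and 4.8% of all tested genes), the lower ones being Hist1h2ac and Hist3h2a, and within KO 0 and 15 (18.3% and 5.74%). For 50 of the 60 the lowest dcIDR change over any pairing of its 20 and 60 min libraries was above the highest KO change, as it was for 17.3% of all tested genes, and for 0 of the 60 the order was the opposite (10.1% of all). In the deposited columns 59 of 61 histone genes with nonzero values were above the median gene, by a median of 0.78. The 2 tested genes below 0 were Hist2h2be at -0.36 and Hist3h2a at -0.06.

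**Figure D1:**
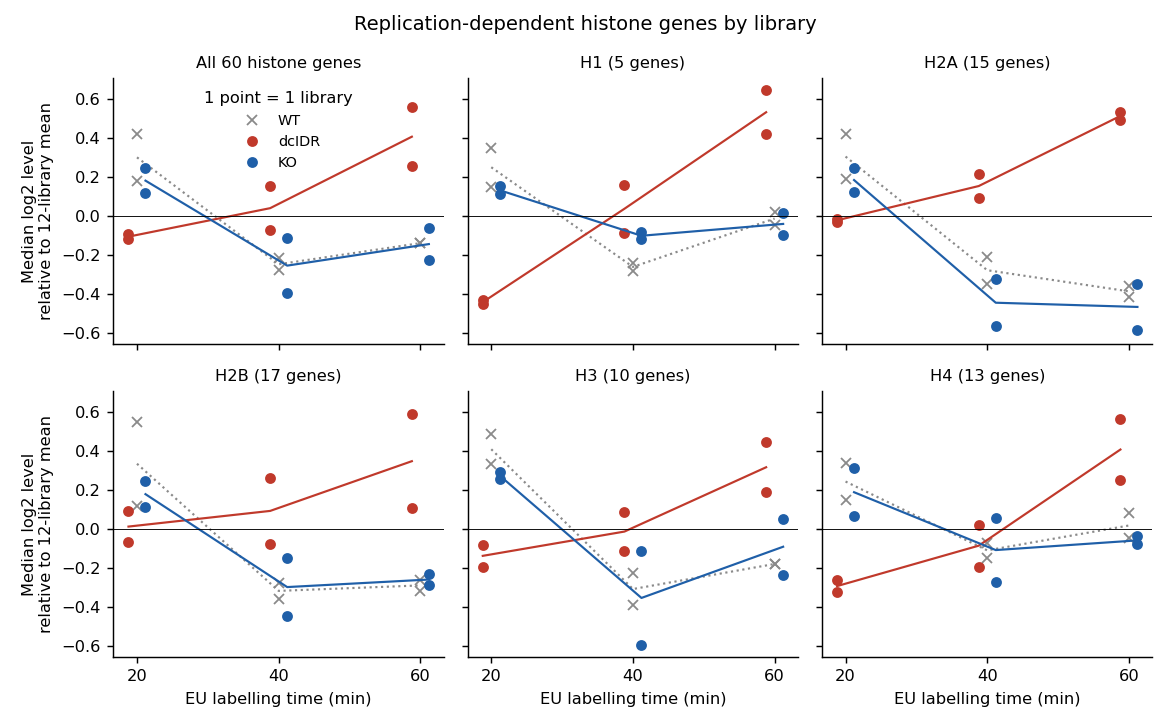
Median log2 level of the replication-dependent histone genes in each library, relative to each gene's mean over the 12 dcIDR and KO libraries, against EU labelling time in minutes, for all 60 tested genes and for each histone type. Points are libraries (crosses are WT) and lines join the means of both libraries; for all 60 genes dcIDR goes from -0.09 and -0.12 at 20 min to 0.56 and 0.25 at 60 min, and KO from 0.12 and 0.25 to -0.23 and -0.06.

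The median gap between the mutants turned over with time. Taken as dcIDR minus KO at each time, the median over the 60 genes was -0.30 at 20 min, 0.28 at 40 min and 0.57 at 60 min. As a share of all gene reads, histone reads were 0.0968% and 0.0971% in dcIDR at 20 min, 0.112% and 0.0968% at 40 min, then 0.136% and 0.113% at 60 min. In KO the share was 0.12% and 0.124% at 20 min, 0.0853% and 0.0983% at 40 min, then 0.0859% and 0.0969% at 60 min. Both KO libraries at 20 min were thus above both dcIDR libraries, and both KO libraries at 60 min were below both dcIDR libraries. WT, which shares no library with the contrast, changed by a median of -0.47 over the same interval with 3 of the 60 genes above 0, where all tested genes changed by 0.08; no test of WT against dcIDR was made.

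Among the histone types the linker histones H1, which bind the DNA between nucleosomes, were called in full: 5 of 5 tested members, with a median difference of 1.04. Of the core histones that form the nucleosome, 1 of 15 H2A genes (median 0.86), 2 of 17 H2B genes (0.79), 0 of 10 H3 genes (0.75) and 2 of 13 H4 genes (0.84) passed. The H1 genes also had the most reads of the list, with mean levels from 848 to 2828, where the median over the 60 genes was 145. The smaller shares called in the other types thus come with fewer reads per gene, and the part of depth in this was not tested. Many core histone genes are near-identical copies, and since the sources used here do not say how reads that fit several copies were counted, the values of single core histone genes are uncertain.

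Hist1h1b had centred levels of 1103 and 1125 at 20 min, 1742 and 1459.8 at 40 min, then 2395 and 1939 at 60 min in dcIDR. In KO the levels were 1707 and 1767 at 20 min, 1398 and 1329 at 40 min, then 1350.3 and 1552 at 60 min. The dcIDR libraries climbed from below both KO libraries to above them, and the difference was 1.21 ± 0.15 (SE, adjusted p = 0.000667). Hist1h1a had 1433 and 1411 at 20 min, 2154 and 1819 at 40 min, then 3123 and 2579.6 at 60 min in dcIDR. Its KO levels were 1911 and 2007 at 20 min, 1620.1 and 1863 at 40 min, then 1910.5 and 1885 at 60 min. The dcIDR libraries lay below KO at 20 min and above it at 60 min, for a difference of 1.04 ± 0.14 (SE, adjusted p = 0.00171).

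Hist1h1c went from 1845 and 1845 at 20 min to 3224 and 3051 at 60 min in dcIDR. In KO it had 2804 and 2897 at 20 min to 2288 and 2663 at 60 min, so that the order of the genotypes was turned around, with a difference of 0.97 ± 0.12 (SE, adjusted p = 0.000667). Hist1h1d went from 1778 and 1899 at 20 min to 3752 and 3570.4 at 60 min in dcIDR. Its KO libraries had 2935 and 2849 at 20 min to 2609.8 and 3021 at 60 min, and the difference was 1.04 ± 0.12 (SE, adjusted p = 0.000667). Hist1h1e, the H1 gene with the lowest level here, went from 611 and 553 at 20 min to 1231 and 1212 at 60 min in dcIDR. KO had 729 and 663 at 20 min to 690.5 and 742 at 60 min, with overlapping values, and the difference was 1.03 ± 0.16 (SE, adjusted p = 0.00549). Within dcIDR all 5 H1 genes passed as higher at 60 min, by 0.77 to 1.07, and within KO none of the 5 passed (-0.26 to 0.04). Hist1h1a, b, c and d were called in all 12 fits that left out 1 library, and Hist1h1e in 11 of them. Of 12 other settings that kept a centring, all 5 were called in 11, and the exception was limma without a trend in the prior, where no gene of the whole table passed.

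**Figure D2:**
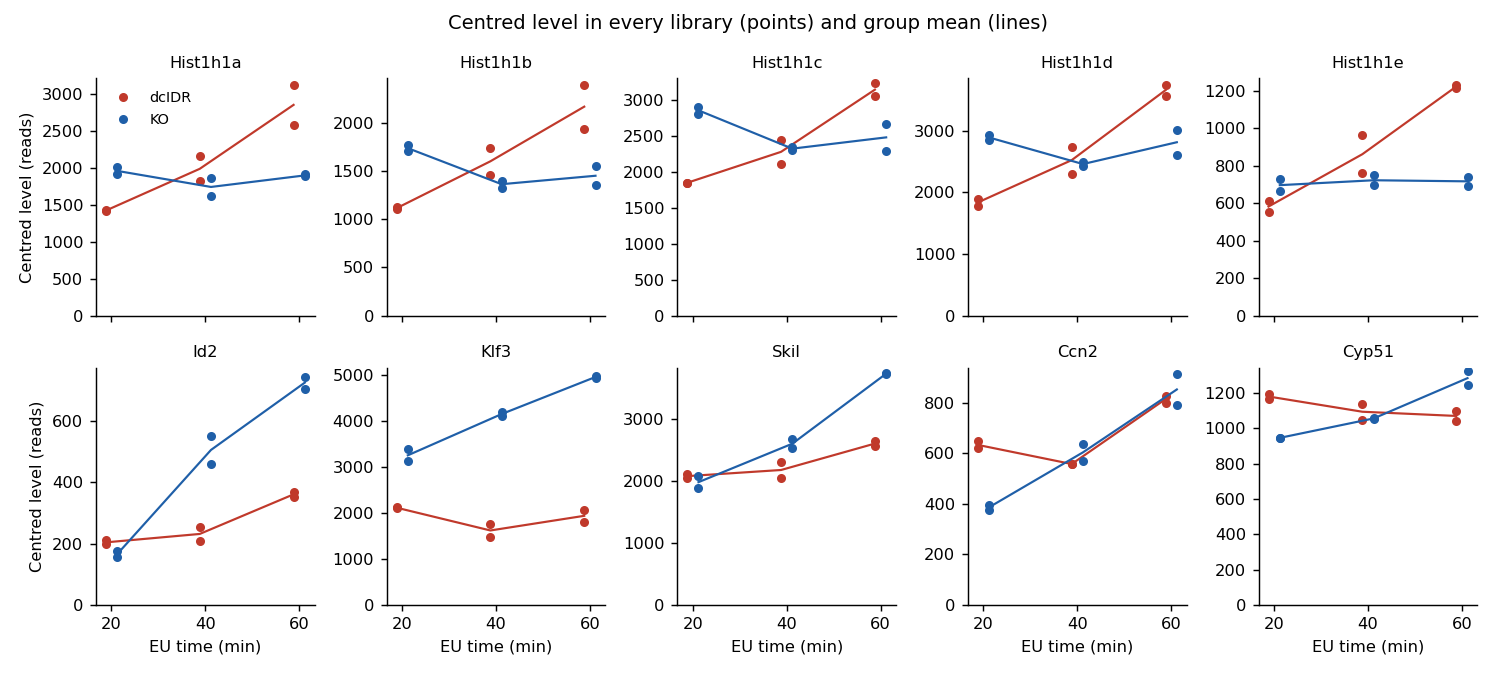
Centred level in reads against EU labelling time in minutes for the 5 H1 genes and for 5 genes with a lower change in dcIDR. Points are libraries, 2 for each genotype and time, and lines join their means; Hist1h1b goes from 1103 and 1125 to 2395 and 1939 in dcIDR, and Id2 goes from 175 and 156 to 707 and 747 in KO.

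Beyond H1, Hist1h2ah, an H2A gene, had centred levels of 51.0 and 44.2 at 20 min to 104 and 108 at 60 min in dcIDR. In KO they were 44.8 and 87.5 at 20 min to 25.5 and 40.3 at 60 min, with a wide gap at 20 min, and the difference was 2.09 ± 0.44 (SE, adjusted p = 0.0316). Hist1h4k, an H4 gene, went from 227 and 284 at 20 min to 571 and 508 at 60 min in dcIDR. Its KO levels were 374 and 411 at 20 min to 377 and 399 at 60 min, for a difference of 1.10 ± 0.19 (SE, adjusted p = 0.0111). Hist1h4h had a difference of 1.30 ± 0.26 (SE, adjusted p = 0.0237) and the H2B gene Hist1h2bc had 1.11 ± 0.24 (SE, adjusted p = 0.0357), and both passed in both fits. The H2B gene Hist1h2bl had a difference of 1.18. It passed in the fit of all genes (adjusted p = 0.0403) but not without the genes of unresolved split (0.0511). Of 12 other settings that kept a centring, Hist1h4k was called in 11, Hist1h4h in 9, Hist1h2ah and Hist1h2bc in 6 and Hist1h2bl in 4.

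On the spike-in scale, with no centring, the histone median was 0.04 and no histone gene passed, while the median of all tested genes was -0.74. H1 differences there were 0.18 to 0.42, with adjusted p from 0.427 to 0.736. On that scale the histone list was near 0 and the median gene was lower in dcIDR. The number of called histone genes ranged from 4 without KO library A at 60 min to 19 without KO library A at 20 min, and was 6 without KO library B at 20 min, while the list median stayed between 0.77 and 1.02.

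**Figure D3:**
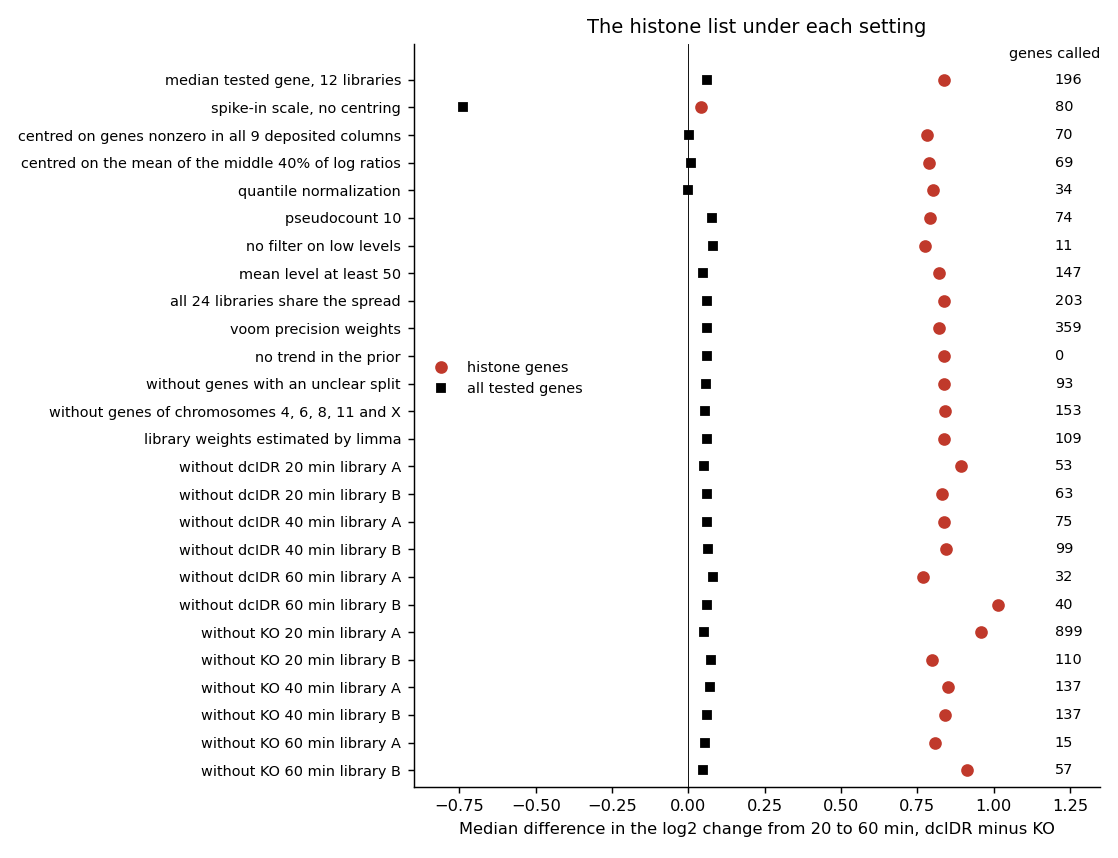
Median difference in the log2 change from 20 to 60 min, dcIDR minus KO, for the histone genes (circles) and for all tested genes (squares) under each setting, with the number of genes called at the right. The histone median lies between 0.77 and 1.02 under all settings but the spike-in scale, where it is 0.04 beside -0.74 for all tested genes.

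A feature of this class is the stem-loop at the end of the mRNA, a short hairpin bound by the stem-loop binding protein during processing. It is shown because it is a shared feature that the contrast did not use. The sense strand of the GENCODE M21 transcripts was searched for the 16 bases GGNNCTTTTCAGNNCC, where N is any base. They were present in 32 of the 60 tested histone genes (53.3%), in 14 of 22422 other tested genes (0.062%) and in 51 of all 55450 annotated genes (0.092%). Sites from H1 and H4 genes, with the 16 bases in capitals and 5 bases on either side, are:
Hist1h1c: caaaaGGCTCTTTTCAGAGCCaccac
Hist1h1d: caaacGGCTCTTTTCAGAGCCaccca
Hist1h1e: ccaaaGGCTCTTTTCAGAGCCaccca
Hist1h4h: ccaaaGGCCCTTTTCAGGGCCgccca
Hist1h4j: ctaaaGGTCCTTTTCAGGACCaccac
Among the 32, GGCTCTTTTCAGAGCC was found in 23, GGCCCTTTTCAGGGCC in 7 and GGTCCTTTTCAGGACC in 2. The median difference was 0.83 for histone genes with the motif in their annotated transcript and 0.84 for those without, with 4 and 6 genes called, and whether each annotated transcript reaches the end of its mRNA was not checked. The 14 other holders had a median of 0.08. Among them Trim17 and H2bfm, by its name an H2B gene outside the list, held the form most common in the histone genes. Their differences were -0.02 and -0.81. In Syncrip, with a difference of 0.35, the bases at each N can pair too. The search did not ask that these bases pair, so the other holders need not carry a hairpin.

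The promoters of the H1 genes share further letters. In the 250 bases before the RefSeq start (build GRCm38.p6, all 5 matched by synonym), AAACACA was found in 4 of 5 H1 promoters, CCAAT in 5 of 5 and TATAAA in 4 of 5. Over all 32851 promoters of that length the shares were 6.25%, 33.85% and 12.37%, both strands counted. AAACACA is the core of an element long known from H1 promoters, and CCAAT and TATAAA are common promoter boxes. The 2 H1 promoters below, with matches of either strand in capitals, show the order of the boxes, and all 5 lie on chromosome 13:
Hist1h1b (RefSeq H1f5, chr13:21780626-21780875, minus strand): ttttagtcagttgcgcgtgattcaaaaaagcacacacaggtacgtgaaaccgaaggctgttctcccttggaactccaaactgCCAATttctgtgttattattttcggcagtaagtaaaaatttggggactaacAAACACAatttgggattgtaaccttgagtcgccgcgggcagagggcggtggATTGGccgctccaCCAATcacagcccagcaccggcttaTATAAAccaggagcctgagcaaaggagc
Hist1h1c (RefSeq H1f2, chr13:23738557-23738806, plus strand): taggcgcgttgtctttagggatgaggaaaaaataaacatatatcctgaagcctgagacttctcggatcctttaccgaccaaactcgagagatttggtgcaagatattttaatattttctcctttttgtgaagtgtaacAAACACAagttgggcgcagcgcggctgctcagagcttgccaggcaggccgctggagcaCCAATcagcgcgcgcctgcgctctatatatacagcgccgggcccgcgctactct
In both, a CCAAT lies between AAACACA and the start. The H1 promoter without AAACACA, that of Hist1h1a, belongs to a gene with a difference of 1.04, within the range of the other 4 (0.97 to 1.21). A match here is a description of letters and was not measured as a binding site.

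Other histone-related genes are given beside these. Among the replication-independent histone variants, whose mRNAs carry a poly(A) tail, 1 of 11 passed with a higher change and the median was 0.28. That gene, H3f3b, encodes the histone variant H3.3. Of the 11 other settings with a centring that tested H3f3b, 5 called it. It had 5467 and 5161 at 20 min to 3859 and 4090.2 at 60 min in KO. In dcIDR it had 3442 and 3119 at 20 min to 3399 and 3649 at 60 min, so the difference of 0.52 ± 0.11 (SE, adjusted p = 0.0259) came with a change of -0.42 in KO, which passed, and of 0.10 in dcIDR, which did not. Among 15 genes for histone mRNA processing, such as the stem-loop binding protein, 0 passed and the median was 0.08. Both lists were chosen after the values were seen.

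Of the 31 tested cell cycle genes, some of them active in S phase, 3 passed with a higher change, and 1 of them without the genes of unresolved split. The list median was 0.22. Of all tested genes 0.689% were called higher. For those with a mean level of 1000 to 5000 the share was 1.73% and the median 0.14, and for those of 5000 or more 11.1% and 0.23. Mcm2, a subunit of the replicative helicase, had 4360.1 and 4104 at 20 min to 6666 and 6393 at 60 min in dcIDR. In KO it had 8059.5 and 7200.3 at 20 min to 7873 and 8795 at 60 min, higher at both times, and the difference was 0.50 ± 0.10 (SE, adjusted p = 0.0257). Outside that list, Chaf1a, the large subunit of the chromatin assembly factor that follows the fork, had a difference of 0.47 ± 0.10 (SE, adjusted p = 0.0372), near the threshold without the unresolved genes (0.0499). Ccnb1 (cyclin B1, 0.45) and Aurka (Aurora kinase A, 0.53) passed in the fit of all genes and not in the other. Of 12 other settings that kept a centring, Chaf1a was called in 5, Aurka in 4 and Ccnb1 in 3. Mcm2 was called in 5 of the 11 that tested it. The median log2 level of the cell cycle list, relative to its mean over the libraries, went from -0.21 and -0.32 to 0.22 and 0.28 in dcIDR, and from -0.04 and -0.20 to 0.14 and 0.17 in KO. The list was thus lowest in the dcIDR libraries at 20 min and highest in those at 60 min, as the histone list was highest in those at 60 min, and its part in the histone result was not tested.

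Outside the histones, predicted genes and pseudogenes were not named. She, an adaptor protein with an SH2 domain, had 813 and 729 at 20 min, 1086 and 979 at 40 min, then 1693 and 1702 at 60 min in dcIDR. In KO it had 669 and 645 at 20 min, 738 and 648 at 40 min, then 784 and 769 at 60 min. The dcIDR libraries ended above all KO libraries, and the difference was 0.90 ± 0.14 (SE, adjusted p = 0.00549). Urm1, a ubiquitin-like modifier of transfer RNA, had a difference of 0.80 ± 0.14 (SE). Maz, a zinc finger transcription factor, had 0.77 ± 0.15 (SE), and Setd1b, a histone H3 lysine 4 methyltransferase, had 0.71 ± 0.14 (SE). Dlgap3, a scaffold protein of synapses, had 0.76 ± 0.16 (SE). These 4 passed with adjusted p from 0.0111 to 0.0276. Arl4d, a small GTPase of the ARF family, had 0.83 ± 0.19 (SE, adjusted p = 0.0461) and did not pass without the unresolved genes (0.0583). She was called in all 12 fits that left out a library. Urm1 was called in 10 of them, Maz in 8, Setd1b in 7 and Dlgap3 in 6.

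Genes of the transcription and splicing machinery had medians near those of other genes with many reads: all tested genes with a mean level of 5000 or more had a median of 0.23 with 11.1% called higher, and those from 1000 to 5000 had 0.14 with 1.73%. Of 47 genes for RNA polymerase II and elongation 4 passed as higher (2 of 44 without the unresolved genes), with a median of 0.22, and of 46 histone modifiers 4 passed (1 of 36), with a median of 0.23. The calls included Polr2a, the largest subunit of the polymerase, at 0.38 with an unresolved split, and Ints6, a subunit of the Integrator complex, at 0.47. Among the modifiers were the methyltransferase Setd1b, the demethylase genes Kdm5b (0.50, unresolved split) and Kdm6a (0.49), and the acetyltransferase gene Kat6b (0.44, unresolved split). Ints6 and Kdm6a did not pass without the unresolved genes (0.0606 and 0.0502). Aff1, a scaffold of the super elongation complex, had 0.52 ± 0.09 (SE, adjusted p = 0.0103). Of 35 splicing genes with CLK kinases and SR proteins 6 passed, 1 of 13 without the unresolved genes, with a median of 0.21. Srsf7 (0.42), Ddx39b (0.46) and Ddx5 (0.41, unresolved split) were among the others. The gene that passed in both fits was Snrnp70, a protein of the U1 snRNP, at 0.42 ± 0.09 (SE, adjusted p = 0.0368). Of 12 other settings that kept a centring, 4 called Snrnp70. Trp53, which encodes p53, had 0.53 ± 0.11 (SE, adjusted p = 0.0303) and was called in 4 of the 11 such settings that tested it. The p53 list of 27 genes that holds Trp53 had a median of 0.07 with no other call.

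Ribosomal protein genes lay slightly above the median gene, mostly without passing. Of 85 tested, 1 passed as higher (Rpl30, 0.51) and 0 of 78 without the unresolved genes, while 83 were above 0 and the median was 0.30. Relative to the median gene their median change was -0.23 in dcIDR and -0.52 in KO. The 19 snoRNA host genes had a median of 0.33, with 19 above 0 and 2 called, Ncl and Taf1d (0 of 14 without the unresolved genes). The 48 tested snoRNA genes had a median of 0.40 with 0 called. Of all 23520 tested genes 0.689% were called higher and 13289 were above 0, with a median of 0.06. Those with a mean level of 1000 to 5000 had a median of 0.14 with 1.73% called higher. For those of 5000 or more these were 0.23 and 11.1%. Among the genes with most reads, Malat1, a nuclear long noncoding RNA, had a difference of 0.26, the mitochondrial ribosomal RNA mt-Rnr2 0.30 and the nucleolar protein gene Ncl 0.42. Taf1d, a subunit of an RNA polymerase I factor, had 0.54, and Xist, a long noncoding RNA of the X chromosome, had 0.49. For Xist, reads of its antisense partner cannot be told apart since the strand of counting is not given. These 5 have an unresolved split, so their adjusted p-values of 0.0403, 0.0344, 0.00367, 0.00746 and 0.0484 rest on a spread that was not measured. On the spike-in scale the medians of the ribosomal protein, splicing, polymerase and cell cycle lists were all below 0, as was that of all genes.

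Genes closer to ALKBH5 function and to the state of the cells gave at most 1 call in each list. Of all tested genes 0.689% were called higher and 0.145% lower. Those with a mean level of 1000 to 5000 had 1.73% called higher, and those of 5000 or more 11.1%. Of 25 m6A genes (writers, erasers and readers) 1 passed, Hnrnpa2b1, a reader whose split is unresolved, at 0.33, and the median was 0.17 with 0 of 22 called without the unresolved genes. Of 40 RNA decay genes 0 passed, with a median of 0.15. Of 28 naive pluripotency genes 1 passed, the nuclear receptor gene Esrrb at 0.53, also with an unresolved split, and the median was 0.21 with 0 of 21 called without such genes. Of 20 genes that silence retroelements 1 passed, Chaf1a, with a median of 0.21. Of 18 MAPK feedback genes, which respond to the pathway that PD0325901 blocks, 0 passed with a median of 0.0039, and of 33 ATF4 targets 0 passed with a median of 0.09. The 375 tested zinc finger genes of the Zfp type had a median of -0.10, with 133 above 0, and 1 passed as lower, none without the unresolved genes.

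**Figure D4:**
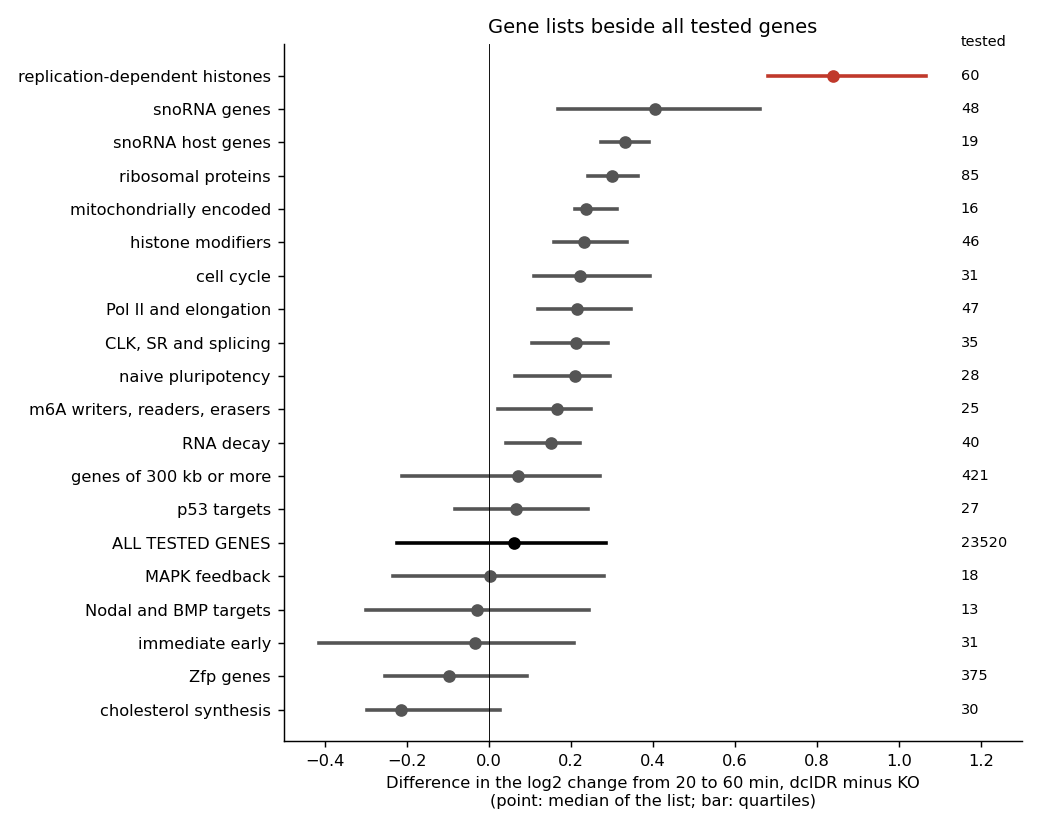
Median (point) and quartiles (bar) of the difference in the log2 change from 20 to 60 min, dcIDR minus KO, for gene lists and for all tested genes, with the number of tested genes at the right. Among the lists shown, the histone list has its median at 0.84, snoRNA genes at 0.40, all tested genes at 0.06 and cholesterol synthesis genes at -0.21. Not all lists are shown, and a list of structured small RNAs with 3 tested genes, left out here, had a median of 0.90 with 0 called.

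In the main fit fewer genes had a lower change in dcIDR (34) than a higher one (162). The order was the opposite under quantile normalization (26 lower, 8 higher) and on the spike-in scale (80 and 0). The named gene with a lower change that passed in every fit leaving out a library was Id2. It is an inhibitor of basic helix-loop-helix transcription factors and a target of BMP signalling. In KO its centred levels were 175 and 156 at 20 min, 460.2 and 553 at 40 min, then 707 and 747 at 60 min. In dcIDR they were 198 and 210.4 at 20 min, 255 and 208 at 40 min, then 370.1 and 352 at 60 min. At 20 min both dcIDR libraries lay slightly above KO, and from 40 min on both KO libraries lay above every dcIDR library. The difference was -1.31 ± 0.20 (SE, adjusted p = 0.00438), with most of it, -1.43, between 20 and 40 min. Id2 was also called on the spike-in scale (-2.11, adjusted p = 0.0116).

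Skil, a negative regulator of SMAD signalling that is itself induced by it, had 2076 and 1889.7 at 20 min, 2677 and 2532 at 40 min, then 3730.2 and 3744 at 60 min in KO. In dcIDR it had 2108 and 2052 at 20 min, 2312 and 2047 at 40 min, then 2572 and 2641 at 60 min. The pairs overlapped at 20 min and were apart at 40 and 60 min, with KO above, and the difference was -0.59 ± 0.11 (SE, adjusted p = 0.0188). Id2 and Skil were the 2 called of the 13 tested Nodal and BMP targets, whose median was -0.03, where 0.145% of all tested genes were called lower.

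Klf3, a Kruppel-like repressor, was already lower in dcIDR at 20 min. In KO it had 3119 and 3374 at 20 min, 4182 and 4105 at 40 min, then 4918 and 4979 at 60 min. In dcIDR it had 2114 and 2105 at 20 min, 1762 and 1467 at 40 min, then 2066 and 1799.7 at 60 min, below every KO library, and the difference was -0.74 ± 0.12 (SE, adjusted p = 0.00894). Ccn2, a matricellular growth factor, had 376 and 396 at 20 min, 636 and 571 at 40 min, then 793 and 913 at 60 min in KO. In dcIDR it had 619 and 647 at 20 min, 556 and 559 at 40 min, then 801 and 828 at 60 min, above KO at 20 min and overlapping it at 60 min, and the difference was -0.77 ± 0.15 (SE, adjusted p = 0.0216). Its relative Ccn1 had a difference of -0.72 that passed in the fit of all genes and not without the unresolved genes (0.0607). Both sit on the list of immediate early genes, of which they were the 2 called of 31, with a list median of -0.03. Of all tested genes 0.145% were called lower. Both are also known targets of YAP and TEAD. Of 12 tested genes on a list of such targets, chosen after the values were seen, 2 passed as lower and 7 were above 0. The median of that list was 0.02, and 1 of 11 passed as lower without the unresolved genes.

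Cyp51, a demethylase of cholesterol synthesis, had 948 and 945 at 20 min to 1326 and 1244 at 60 min in KO. In dcIDR it had 1167 and 1195 at 20 min to 1043 and 1099 at 60 min, and the difference was -0.58 ± 0.12 (SE, adjusted p = 0.0306). It was the 1 called of 30 cholesterol synthesis genes, whose median of -0.21 was the lowest of the lists shown, with 10 of 30 above 0. Of all 23520 tested genes 0.145% were called lower and 13289 were above 0. Nfe2l3, a transcription factor of the CNC family, had -0.77 ± 0.16 (SE, adjusted p = 0.0321), and Acad11, an acyl-CoA dehydrogenase, had -0.79 ± 0.16 (SE, adjusted p = 0.0278). Ccdc158, a coiled-coil protein, had -1.17 ± 0.24 (SE, adjusted p = 0.0276) and was called in 4 of the 12 fits that left out a library. Dusp8, a phosphatase of MAP kinases, had -1.87 ± 0.44 (SE, adjusted p = 0.048) and Slc35a5, of a family of nucleotide sugar transporters, had -0.98 ± 0.23 (SE, adjusted p = 0.0471), and neither passed without the unresolved genes (0.0617 and 0.0583). Arfgef3 had -0.78 ± 0.15 (SE) and Vstm5, a membrane protein with a low level here, had -1.69 ± 0.37 (SE), called in 2 of the 12 fits that left out a library. Skil and Arfgef3 were called in 7 of these fits, Klf3 in 10, Ccn2 in 6, Nfe2l3 in 5, and Cyp51 and Acad11 in 4.

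**Figure D5:**
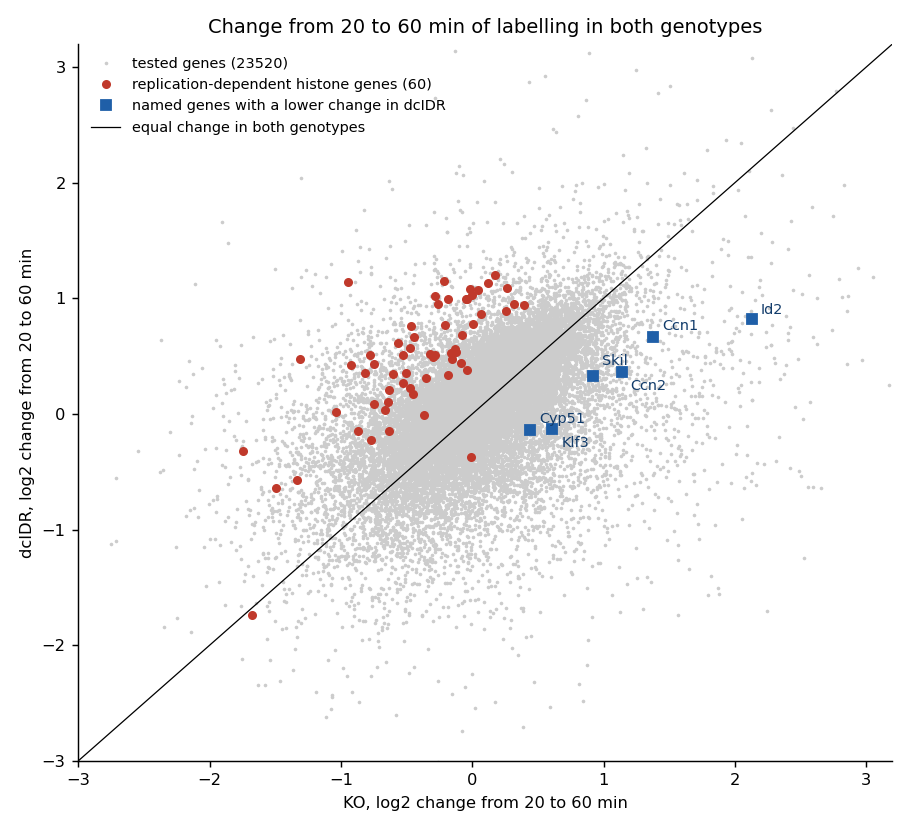
Log2 change from 20 to 60 min of labelling in dcIDR against that in KO, both relative to the median gene, for 23520 tested genes. Histone genes (circles) lie above the line of equal change in 58 of 60 cases, and the named genes with a lower change in dcIDR (squares) lie below it, with Id2 at 2.13 in KO and 0.82 in dcIDR.

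Within the interval, 5 genes (0.0213%) differed between 20 and 40 min, 2 higher (0.0085%) and 3 lower (0.0128%) in dcIDR, and 0 between 40 and 60 min, where 2245 and 1425 genes had an unadjusted p under 0.05 and limma with voom weights called 15 and 3. Of 421 genes of 300 kb or more 2 passed from 20 to 60 min, Mid1 at 0.74 and Mad1l1 at 0.44, and 0 of 415 without the unresolved genes, with a median of 0.07. The 5 called between 20 and 40 min were Mid1 at 0.98, whose split is unresolved, Hist1h1b at 0.87, Amotl2 at -0.63, Klf3 at -0.74 and Id2 at -1.43. Amotl2, a YAP-binding angiomotin, lies outside the rule for named genes and was picked for its value. Without the unresolved genes Id2 was the 1 called (adjusted p = 0.0117), and Hist1h1b, Amotl2 and Klf3 had 0.0568. The histone median was 0.56 between 20 and 40 min and 0.28 between 40 and 60 min, so both intervals added to the difference.

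The level itself differed between the mutants for many more genes. Averaged over the 3 times, 10839 genes (46.1%) differed between dcIDR and KO, 5682 higher and 5157 lower. Of the 17 tested genes of the two-cell-like program 16 were lower in dcIDR, with a median of -2.61, while 0 of the 17 were called for the change and its median was 0.08.

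Repeat families showed no called difference in the same contrast. Of 61 families 60 were tested and 0 passed in limma, 6 had an unadjusted p under 0.05 and the median was 0.10. Satellite repeats had a difference of 0.35 ± 0.13 (SE, adjusted p = 0.389), and LINE-1 as a whole had 0.18 ± 0.14 (adjusted p = 0.624). Full-length LINE-1 copies, the mobile ones, are longer than most fragments. In the deposited columns the 12337 LINE-1 loci of 5 kb or more with nonzero values throughout had a median difference of 0.53, those of 5 kb or more in the ERVK family 0.43 (1165 loci) and in the ERVL family 0.34 (612 loci), where LINE-1 loci under 1 kb had -0.05. Loci share sequence and reads, and in the sums of each library the long LINE-1 difference was 0.45 ± 0.29 (SE, adjusted p = 0.767 over the length classes). Its levels, in reads centred as for genes, were 901300, 833200, 1061000, 1053000, 1056000 and 1229000 in dcIDR from 20 to 60 min, library A before B. In KO they were 959400, 1546000, 1356000, 1101000, 1176000 and 1169000, so that KO library B at 20 min, the shallow one, was the highest of all.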

How the data were processed

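Per the labels' protocols, EU-labelled RNA of each library was mixed with EU-labelled Drosophila RNA, captured by click chemistry and sequenced from stranded total RNA libraries. HISAT2, SAMtools, Picard and GRCm39 are named in the submitters' processing notes, and the way reads were counted is not given in the sources used here. The deposited values are log2 ratios of each time to 10 min, pooled over both libraries of a group by the authors. From the exact values the reads of each library were recovered, with every gene solved, and this was tested on simulated data. The columns headed ki were taken as dcIDR, the genotype left. Each library was brought to the same number of spike-in reads. Limma 3.58.1 (R 4.3.3, prior with a trend) was fitted to log2(level + 1) of the 23520 genes averaging 10 or more reads on that scale, after each library was centred on its median gene, over 12 libraries in 6 groups with Benjamini-Hochberg adjustment at 0.05. Fold changes on this scale are smaller than the true ones for genes with few reads.

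Genes were named by rule: those called with a mean level of 50 or more, a resolved split and no overlap of library pairings, the 15 largest in each direction without predicted genes and pseudogenes, with up to 4 called members of each list, and Alkbh5. The members and lists were chosen with earlier results of these data known, and the lists of histone variants, histone mRNA factors and YAP targets after these values were seen. Other scalings, filters, pseudocounts, weights and left-out libraries were tried as alternatives. Single-time differences and gene lists were not tested. One gene that the rule names is not reported here.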

Additional observations from a re-analysis of the deposited data

Results flagged for a closer look

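For 5 of the named genes the change from 20 to 60 min passed in both mutants with opposite signs, and the difference between the changes passed too. Genes outside the naming rule, predicted genes among them, were left out of this count. Hist1h2ah changed by 1.14 in dcIDR and -0.95 in KO, a difference of 2.09 on the log2 scale. Ndfip1, an adaptor of ubiquitin ligases, changed by -0.36 and 0.49, a difference of -0.85. Slco1c1, a transporter of thyroid hormone, changed by -0.45 and 0.33, a difference of -0.77. Slc1a4, a transporter of neutral amino acids, changed by -0.37 and 0.34, a difference of -0.71, and the zinc finger gene Zfp235 by -0.48 and 0.52, a difference of -1.0. The last 2 had adjusted p-values of 0.0506 and 0.0608 in limma without the genes of unresolved split.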

How the results depend on the processing

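No paired analysis was possible because the recovered libraries cannot be matched to the replicate numbers of the labels. The 196 genes called between 20 and 60 min became 80 on the spike-in scale (0 higher), 70 when centred on genes nonzero in all 9 deposited columns, 69 when centred on the middle 40% of log ratios, 34 under quantile normalization, 74 with a pseudocount of 10, 11 with no filter on low levels, 359 with voom weights, 0 with no trend in the prior, 93 without the genes of unresolved split and 109 with library weights (chosen after seeing the data). Leaving out 1 library gave 15 to 899. The 5 genes called between 20 and 40 min became 0 on the spike-in scale, 3 with no filter, 8 with all 24 libraries, 15 with voom weights, 0 with no trend, 1 without the unresolved genes, 2 with library weights and 1 to 385 without 1 library. Between 40 and 60 min 3 were called with voom weights and 0 in each fit without 1 library. The 10839 genes that differed on average became 6898 on the spike-in scale and 9560 to 11476 without 1 library. For repeat families 1 was called on the spike-in scale and 0 to 2 without 1 library. The difference in total reads per spike-in read was -0.96 to -0.30 without 1 library. On the spike-in scale 29 of 60 named genes changed sign: Ints6 to -0.33, Srsf7 -0.37, Taf1d -0.26, Rpl30 -0.29, Hnrnpa2b1 -0.46, Ccnb1 -0.35, Kdm6a -0.30, Xist -0.31, Ddx5 -0.39, Ddx39b -0.34, Kdm5b -0.30, Mcm2 -0.30, Esrrb -0.27, Chaf1a -0.33, Aff1 -0.27, Trp53 -0.27, Kat6b -0.36, Snrnp70 -0.38, Mid1 -0.054, Ncl -0.38, Aurka -0.27, H3f3b -0.27, Polr2a -0.42, Mad1l1 -0.35, Setd1b -0.083, Malat1 -0.54, mt-Rnr2 -0.50, Maz -0.0295 and Dlgap3 -0.032. Hnrnpa2b1 also changed sign under quantile normalization (-0.090). The cause of these shifts was not tested beyond the scaling itself. Of the 60 named genes, 29 lost their call when libraries were centred on genes nonzero in all 9 deposited columns. With centring on the middle 40% of log ratios 30 did. Under quantile normalization 41 did, besides the 1 that changed sign. Genes with few reads could be called only for large differences.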
